A study of Mus musculus with 4 samples.

Results

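The genes described here are 35 beta cell identity and function genes, 19 transcription factor genes and 16 genes of hormones, receptors, channels and granule or glucose handling. They were chosen by symbol from 23473 rows of the count table that carry a gene name, and all 35 had a row. RNA-seq counts came from 4 libraries labelled MIN6, a mouse insulinoma line that serves to study beta cells in culture. Of these, 2 came from wild type (control) cells and 2 from cells with TLX overexpression. TLX is an orphan nuclear receptor whose gene is Nr2e1. All cells were grown in DMEM with 25 mM glucose and fetal calf serum. How many clones were used and whether the replicates were separate cultures is unstated in the sources used here, so p-values measure the spread between these libraries, which may be technical.

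In the adult beta cell, glucose enters through a transporter and is metabolised, ATP closes the potassium channel formed by Kcnj11 and Abcc8, and calcium entering through voltage-gated channels triggers the release of insulin granules. Pdx1, Nkx6-1, Mafa, Neurod1 and Pax6 are transcription factors that keep the insulin genes and this machinery switched on. Incretin and fatty acid receptors such as Glp1r, Gipr and Ffar1 amplify secretion.

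The libraries held 8136185 to 9788646 counts in gene rows, and 3 counts in a library, the limit that a count of 0 allows, equal 0.302 to 0.378 CPM (the usual depth-scaled count, here on library totals scaled by TMM; the limit covers counting error only). As a check of the labels, the Nr2e1 row held 8 and 10 counts in control against 338 and 281 in TLX. The defining markers of the labelled cell type were largely missing in both groups: 20 of the 35 genes (57.1%) had 0 counts in all 4 libraries, against 33.0% of all gene rows. Whether the libraries came from the labelled line, and whether the counting missed reads of these genes, was not tested, and every 0 and every comparison below is subject to this. Over the 4 libraries together, 0 counts allow a level of up to 0.086 CPM. The 35 genes together held 567 and 654 counts in control and 609 and 557 in TLX, or 67.9, 65.8, 70.4 and 70.2 CPM. These are levels in bulk RNA, where fewer cells of a type and less RNA per cell cannot be told apart.

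Markers of other cells stood beside these levels. Summed over 23 fibroblast and mesenchymal markers, the level was 7996 to 8407 CPM in control and 8658 to 8984 CPM in TLX. Most of it came from Col1a2, Vim, S100a4 and Fn1, at 3184, 1619, 1547 and 993 CPM on average in control. The list was not uniform: Lum was at 0, and others too low to test included Col3a1, Dcn, Postn and Acta2, at 0.450, 0.230, 0.180 and 0.110 CPM in control. Epithelial markers were largely missing: Epcam and Cldn7 were at 0, Cdh1, which encodes E-cadherin, had 1 count in all, and Krt18, at 52.6 and 45.9 CPM on average in control and TLX, made up most of the summed 46.0 to 54.2 CPM of 11 genes. Of 8 alpha cell markers 6 were at 0, including Gcg, while the homeobox genes Irx1 and Irx2 gave the summed 77.4 to 88.3 CPM. Sst, Ppy and the progenitor factor gene Neurog3 were at 0. Of 9 duct markers 4 were at 0, including Krt19 and Cftr, and the sum of 921 and 999.8 CPM in control and 760.4 and 774 CPM in TLX was mostly Spp1, which mesenchymal cells and macrophages also express. Of 11 acinar markers 6 were at 0 (summed level 1.61 to 2.77 CPM), and 6 endothelial markers summed to 2.02 to 3.23 CPM. Of 9 leukocyte markers 8 had a row, with sums of 59.8 to 85.6 CPM. Most of it was Cd68, at 63.6 and 44.3 CPM on average in control and TLX, and Lyz2, at 17.3 and 16.6 CPM. The defining Ptprc had 1 count or 0 in each library. Some of these markers differed between control and TLX: 4 of 15 tested mesenchymal markers rose (Sparc, Cdh2, Col6a1 and Col1a2) and 4 fell (Fn1, Snai2, Prrx1 and Pdgfrb), where 16.8% of all tested genes were called. The progenitor and duct gene Sox9 fell by 1.37 on the log2 scale (edgeR adjusted p = 1.57e-07), Sox4, Spp1 and Cd68 fell, and Krt7 rose. The call of Col1a2 was lost with any single library left out (edgeR adjusted p of 0.0707 to 0.22), that of Spp1 without TLX replicate 1 or 2 (0.0965 and 0.0645) and that of Pdgfrb without control replicate 1 (0.071). Col6a1 and Pdgfrb did not pass in DESeq2 (adjusted p of 0.101 and 0.0816), nor Col1a2 in edgeR on total counts (adjusted p = 0.125) or with all feature rows (0.121). The part of any of these in the results was not tested.

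**Figure D1:**
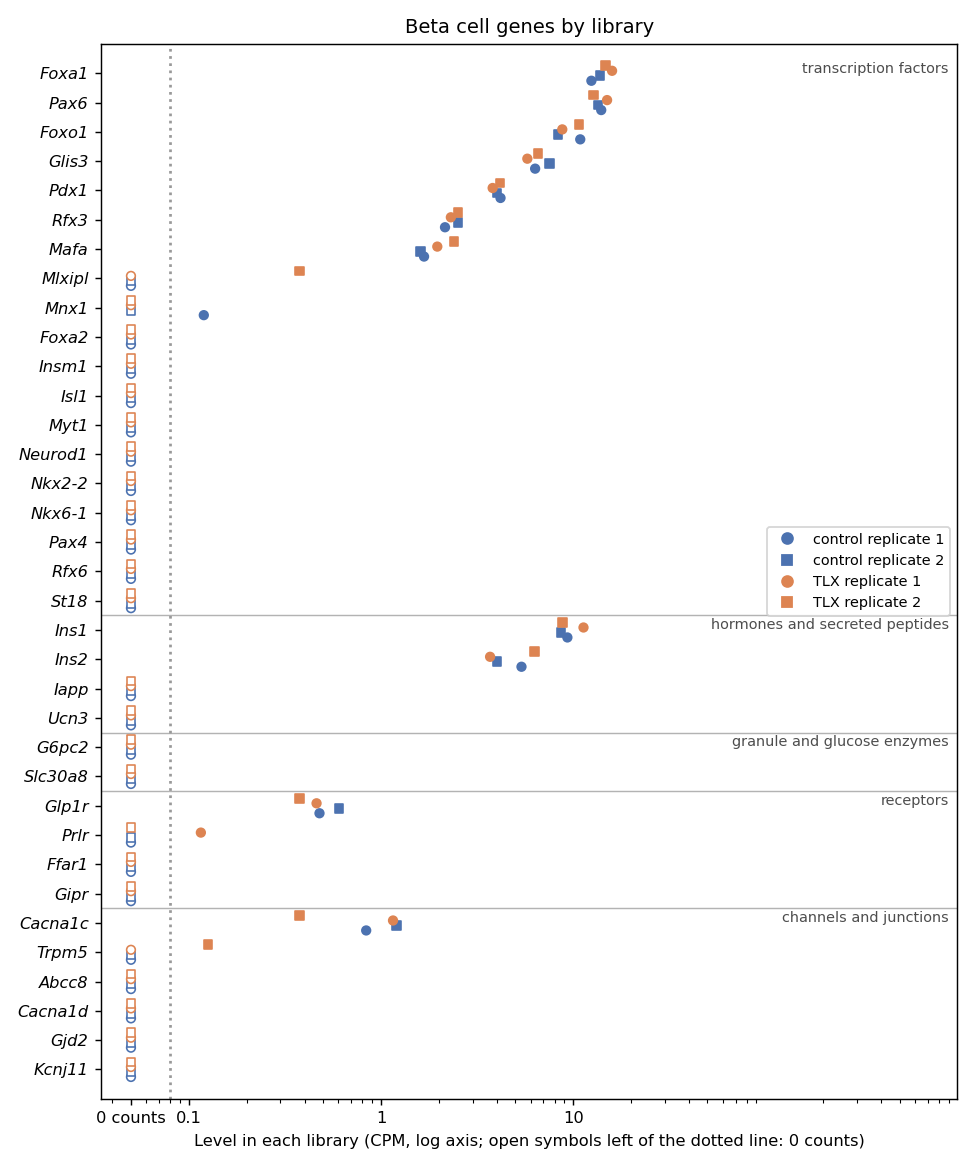
Level of each of the 35 genes in each library, in CPM on a log axis, with open symbols at the left for 0 counts; circles and squares are replicates 1 and 2. No gene exceeded 15.9 CPM in any library, and 20 genes had 0 counts throughout.

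The insulin genes are described first because they define the cell type and because their transcripts resemble each other. Mice carry 2 insulin genes, and the stretch that encodes the A chain is nearly the same in both. The last 120 bases of the coding sequence, taken from GENCODE M21 transcripts (GRCm38; Ins1 on chromosome 19, Ins2 on chromosome 7), are shown with capitals at the 13 positions where the genes differ.
Ins1: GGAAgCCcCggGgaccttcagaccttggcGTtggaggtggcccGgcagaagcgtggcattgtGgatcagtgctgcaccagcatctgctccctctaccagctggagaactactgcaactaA
Ins2: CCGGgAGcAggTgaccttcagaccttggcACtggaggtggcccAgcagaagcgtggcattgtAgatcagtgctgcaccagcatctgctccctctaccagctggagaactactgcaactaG
The longest run of bases common to both coding sequences was 56, and 7 of 278 windows of 50 bases in Ins1 also occurred in Ins2. For windows of 36 bases it was 35 of 292. Neither the read length nor the treatment of reads with several matches is stated in the sources used here, so the split of reads between both genes is uncertain.

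Ins1 had 9.33 and 8.65 CPM in the control libraries and 11.3 and 8.82 CPM in the TLX libraries. The groups overlapped, with TLX replicate 1 the highest and control replicate 2 the lowest. Ins2 had 5.39 and 4.02 CPM in control and 3.70 and 6.30 CPM in TLX. Here the TLX libraries were both the lowest and the highest. The fold change was 1.13 for Ins1 (95% interval 0.880 to 1.44; log2 fold change 0.17, SE 0.17, edgeR adjusted p = 0.548). For Ins2 it was 1.06 (0.737 to 1.54; edgeR adjusted p = 0.863). Per kilobase of the deposited feature length (1018 bases for Ins1, 565 for Ins2) they averaged 9.36 and 8.59 CPM, the highest of the 35 genes, yet 46.5% and 44.2% of the genes tested lay below them. Iapp, which encodes the amyloid peptide secreted with insulin, and Ucn3, which encodes urocortin 3 of mature beta cells, had 0 counts in every library.

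Of the 35 genes 9 had enough counts to be tested by the low-count filter applied to the whole table (25.7%, against 47.0% of gene rows): Pdx1, Mafa, Pax6, Foxa1, Rfx3, Foxo1, Glis3, Ins1 and Ins2. None was called higher or lower with TLX (0 of 9), where 16.8% of 11024 tested genes were called, 7.79% higher and 9.04% lower. In edgeR's quasi-likelihood test 0 of the 9 had an unadjusted p under 0.05, and DESeq2 and limma-voom called 0. With TLX replicate 1 or 2 left out 9.29% and 9.14% of genes were called, and 7.48% in DESeq2, with 0 of the 35 genes in each. Without a low-count filter 15 of the 35 could be fitted and 0 were called, against 12.8% of genes; 0 had an unadjusted p under 0.05. The groups did not overlap for 2 of the 9, Foxa1 and Mafa, against 57.1% of tested genes. The median log2 fold change of the 9 was 0.04, and 0.00 over all tested genes.

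The median SE of the log2 fold change was 0.20 for the 9 genes, against 0.11 for all genes tested. The 95% interval, not adjusted for the number of genes, lay below a 2-fold rise for 8 of the 9, Mafa being the exception, and above a fold of 0.5 for all 9.

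**Figure D2:**
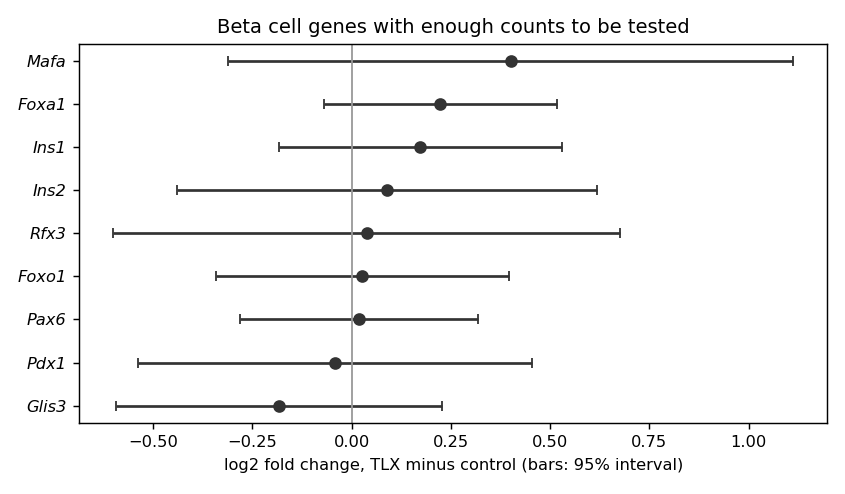
Log2 fold change of TLX minus control for the 9 genes tested, with 95% intervals from edgeR's quasi-likelihood fit over 11024 genes. Every interval includes 0, and Mafa, at 0.40, has the widest.

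Among transcription factor genes, Foxa1 and Pax6 were the most abundant. Foxa1, a pioneer factor of foregut endoderm and of other epithelia, had 12.4 and 13.8 CPM in control and 15.9 and 14.7 CPM in TLX. Both TLX libraries lay above both controls, and the fold change of 1.17 did not pass the test (0.953 to 1.43; edgeR adjusted p = 0.307, the smallest of the 9 genes). Pax6, a paired-box factor of the eye, the brain and all islet cell types, had 14.0 and 13.5 CPM in control and 15.0 and 12.7 CPM in TLX. Its TLX libraries lay on either side of the controls, with a fold change of 1.01 (95% interval 0.823 to 1.25; edgeR adjusted p = 0.947). In GRCm38 the Pax6 locus overlaps Elp4, a subunit gene of the elongator complex, counted 73, 80, 78 and 61 times, and the antisense gene Pax6os1, counted 1, 3, 0 and 0 times; whether the counting used strand is unstated.

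Pdx1, the homeobox factor needed for pancreas formation and for insulin transcription, had 4.19 and 4.02 CPM in control and 3.81 and 4.16 CPM in TLX. The 4 libraries held 35, 40, 33 and 33 counts, and the fold change was 0.971 (0.688 to 1.37; edgeR adjusted p = 0.932). Mafa, a basic leucine zipper factor of mature beta cells, was counted 14 and 16 times in control and 17 and 19 times in TLX, or 1.68, 1.61, 1.96 and 2.39 CPM. Both TLX libraries were higher, with a fold change of 1.32 and an interval of 0.807 to 2.16 (edgeR adjusted p = 0.475). The deposited length of the Mafa row was 1080 bases, 39.4% of that of the longest GENCODE M21 transcript, and that of Pdx1 was 1287 bases (59.6%). Only lengths were compared, not which bases a row holds.

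Foxo1, a forkhead factor restrained by insulin signalling, had 10.9 and 8.35 CPM in control and 8.78 and 10.7 CPM in TLX. Glis3, a zinc finger factor that acts on the insulin gene and in the thyroid and kidney, had 6.34 and 7.55 CPM in control and 5.78 and 6.55 CPM in TLX. A separate row named for a cDNA clone that RefSeq lists under Glis3 held 28 and 24 counts in control and 14 and 18 in TLX. Rfx3, a winged-helix factor of cilium genes and of islet development, had 2.15 and 2.52 CPM in control and 2.31 and 2.52 CPM in TLX. The groups overlapped for all 3 genes, with fold changes of 1.02 (0.789 to 1.32), 0.880 (0.663 to 1.17) and 1.03 (0.660 to 1.60) and edgeR adjusted p of 0.941, 0.584 and 0.953.

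Per kilobase of feature length the tested transcription factor genes ranked Foxa1 (4.46 CPM per kilobase), Pax6 (3.75), Pdx1 (3.14), Mafa (1.77), Foxo1 (1.74), Glis3 (1.67) and Rfx3 (0.254), averaged over 4 libraries. Mafa, Foxo1 and Glis3 differed from each other by less than their spread between libraries. The median of all tested genes was 10.7 CPM per kilobase, and 27.9% of tested genes lay below Foxa1, 21.4% below Pdx1 and 0.454% below Rfx3.

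The remaining 12 transcription factor genes were at or near 0. Nkx6-1, Nkx2-2, Neurod1, Isl1, Insm1, Rfx6, Pax4, St18, Myt1 and Foxa2 had 0 counts in every library. Nkx6-1 and Nkx2-2 are homeobox factors that hold the beta cell fate, Neurod1 is a basic helix-loop-helix activator of the insulin gene, and Isl1, Insm1 and Rfx6 act in islet cells of several types. Pax4 directs endocrine precursors to the beta cell fate, St18 and Myt1 belong to the same zinc finger family, and Foxa2 is the close relative of Foxa1. For 8 of the 10, the deposited length was at least 97.5% of that of the longest GENCODE M21 transcript, among them Insm1 (97.5%) and Isl1 (100.4%), while it was 91.4% for Neurod1 and 57.2% for Nkx6-1. Mnx1, a homeobox factor of the pancreas and motor neurons, had 1 count, in control replicate 1. Mlxipl, which encodes the glucose-responsive factor ChREBP, had 3 counts, all in TLX replicate 2. Both were too few to compare the groups.

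Of the 14 function genes other than the insulin genes, 10 had 0 counts in every library, Iapp and Ucn3 among them. Abcc8 and Kcnj11, which encode the sulphonylurea receptor and the pore of the ATP-sensitive potassium channel, were at 0, on rows whose deposited length was 101.5% and 103.5% of that of the longest GENCODE M21 transcript. G6pc2, the islet glucose-6-phosphatase, and Slc30a8, the zinc transporter of the insulin granule, were also at 0. So were the incretin receptor gene Gipr, the fatty acid receptor gene Ffar1, the gap junction gene Gjd2 and the calcium channel gene Cacna1d. The Ffar1 row had a length of 903 bases, 21.6% of that of the longest transcript, and for Gipr the share was 56.3%. In GRCm38 Cacna1d overlaps Dcp1a, counted 341, 414, 316 and 284 times, and Iapp overlaps Slco1a5, counted 2, 4, 6 and 4 times. How reads in such overlaps were counted is unstated.

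Low counts were found for 4 function genes. Glp1r, the receptor of the incretin GLP-1, was counted 4 and 6 times in control and 4 and 3 times in TLX. Its ratio of TLX to control was 0.772, with an exact 95% interval of 0.249 to 2.25 for counting error only. Cacna1c, which encodes the L-type channel Cav1.2, was counted 7 and 12 times in control and 10 and 3 times in TLX (ratio 0.755, interval 0.343 to 1.61). TLX replicate 2 was the lowest, at 0.378 CPM, and the other 3 libraries lay between 0.838 and 1.21 CPM. In GRCm38 Cacna1c overlaps the decapping gene Dcp1b, counted 44, 57, 37 and 33 times. Trpm5, a calcium-activated cation channel gene, had 1 count, in TLX replicate 2, and Prlr, the prolactin receptor gene, had 1 count, in TLX replicate 1.

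The members' families were compared next, per kilobase, to show which paralog the libraries held. In the Foxo family Foxo4 led with 14.0 CPM per kilobase, then Foxo3 with 7.33 and Foxo1 with 1.74. In the Maf family the small Maf genes, which lack an activation domain, stood far above Mafa (1.77): Maff averaged 173, Mafk 72.1 and Mafg 48.5 CPM per kilobase. Rfx1 led its family with 7.18 CPM per kilobase, followed by Rfx7, Rfx2 and Rfx5 with 2.38 to 2.84, Rfx3 with 0.254 and Rfx6 with 0. Mlx, the partner of ChREBP, and Mlxip, its paralog, had 20.3 and 8.64 CPM per kilobase against 0.026 for Mlxipl. Glis2 had 13.4 against 1.67 for Glis3. Among the families compared in this way Foxa was the exception: Foxa1 was the only one of its 3 genes with counts. Not every listed gene was placed in such a family. Outside them, Ins1 and Ins2 averaged 9.36 and 8.59 CPM per kilobase against 0.004 and 0.021 for Igf1 and Igf2. Glp1r had 0.325 against 0 for Glp2r and Gcgr.

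In the enzyme, transporter and channel families a paralog also stood above the listed gene, apart from Abcc8 and Kcnj11. G6pc3, the ubiquitous glucose-6-phosphatase, had 17.0 CPM per kilobase, and G6pc and G6pc2 were at 0. Of 10 zinc transporter genes, Slc30a4 led with 20.6 CPM per kilobase and Slc30a8 and Slc30a10 were at 0. Gja1, the connexin of heart and fibroblasts, had 22.5 CPM per kilobase in control and 21.6 in TLX where Gjd2 was at 0, Trpm7 and Trpm4 had 8.80 and 4.13 against 0.0072 for Trpm5, and Cacna1a, the P/Q-type channel gene, had 3.35 against 0.099 for Cacna1c. Abcc9 and Kcnj8, the paralogs of Abcc8 and Kcnj11, were at 0 like them.

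**Figure D3:**
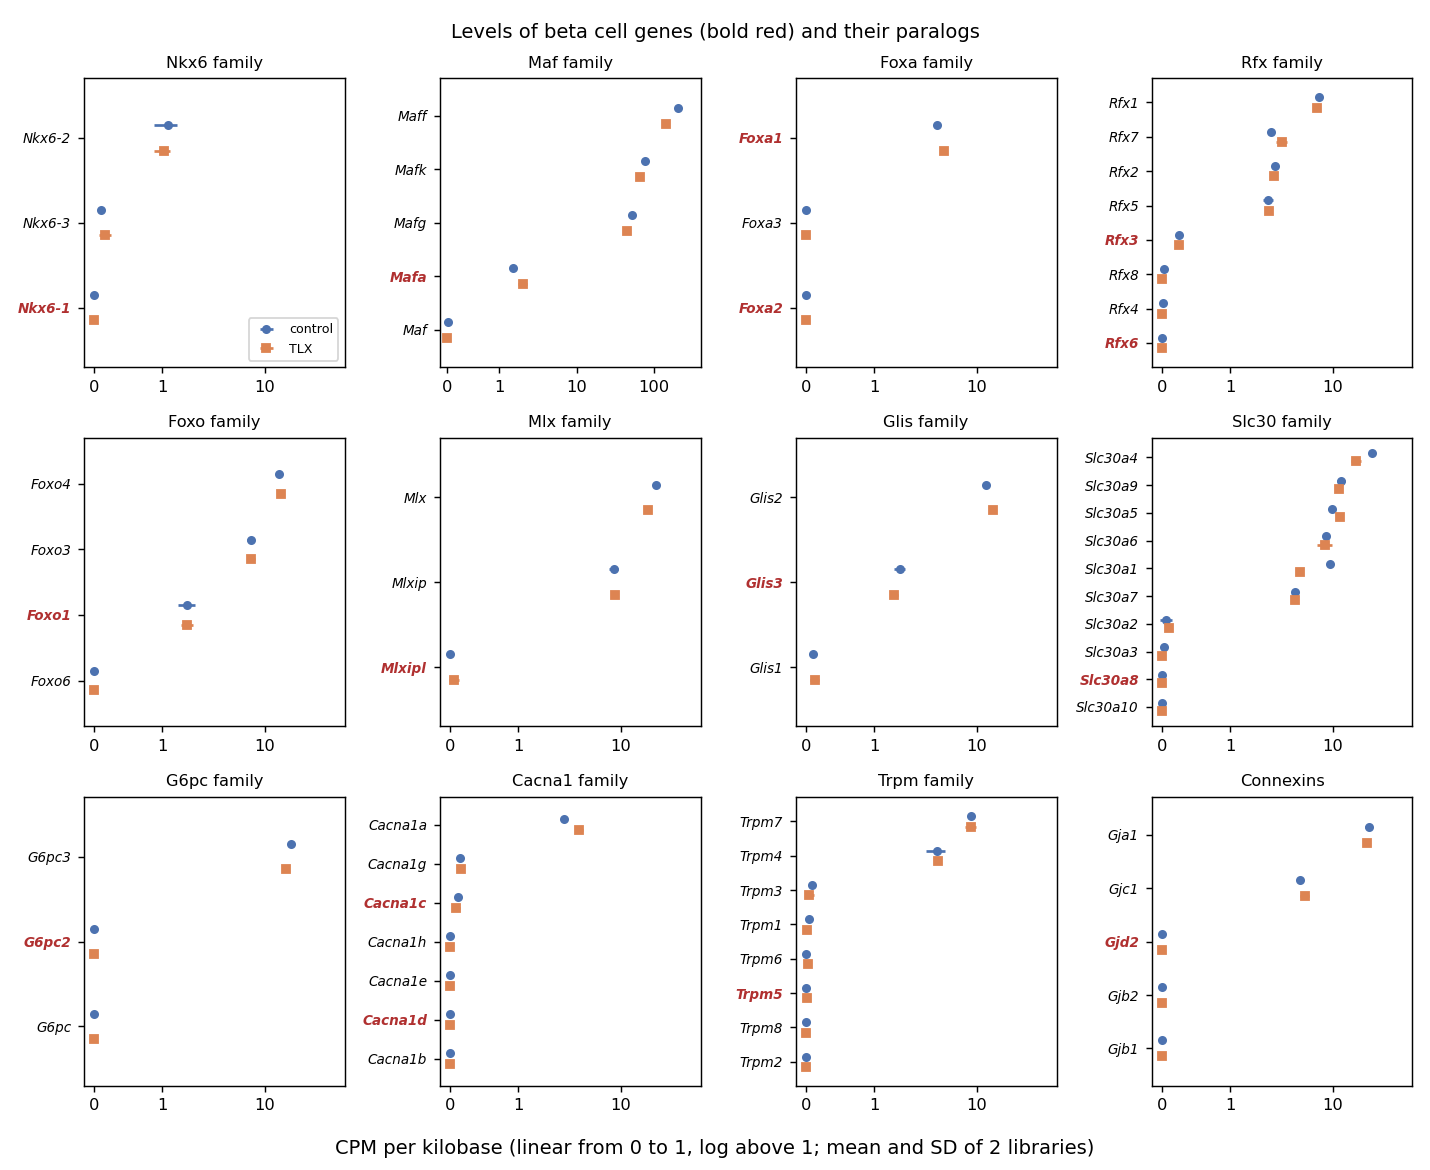
Levels of the listed genes (bold red) and of paralogs in 12 families, in CPM per kilobase of feature length (linear from 0 to 1, log above), as the mean and SD of 2 control (circles) and 2 TLX (squares) libraries. Among these 12 families a listed gene is the highest only for Foxa1, at 4.46 CPM per kilobase over all libraries.

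The paralogs were tested in the same fit, in which 16.8% of all genes were called. Of 17 tested paralogs of the transcription factors 0 rose and 1 fell: Maff, with 368 ± 23 CPM in control and 256 ± 15 in TLX (SD, n = 2; log2 fold change -0.52, SE 0.08, edgeR adjusted p = 4.93e-05). Of 14 tested paralogs of the function genes 1 rose and 2 fell. Slc30a1, which encodes the zinc exporter of the cell membrane, fell, with 49.1 ± 2.4 CPM in control and 25.2 ± 0.6 in TLX (log2 fold change -0.97, SE 0.10, edgeR adjusted p = 4.21e-07). Slc30a4 fell from 133 ± 8 to 93.1 ± 10.3 CPM (edgeR adjusted p = 0.000193). Cacna1a rose from 22.1 ± 1.5 to 30.9 ± 2.8 CPM (edgeR adjusted p = 0.00565), but not in DESeq2 (0.0696) or without TLX replicate 2 (0.0854). The medians of the log2 fold change were -0.01 and 0.00 for these lists.

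Calcium channels also carry accessory subunits, and 5 of 9 were tested. Cacnb2, a beta subunit gene, rose, with 4.89 ± 0.48 CPM in control and 9.03 ± 0.47 in TLX (log2 fold change 0.88, SE 0.19, edgeR adjusted p = 0.00266, and 0.0672 in DESeq2). The most abundant was Cacnb3, at 54.3 ± 6.8 CPM in control and 53.1 ± 0.5 in TLX, and none of the other 4 passed.

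Of 11 tested genes of glucose entry and sensing 3 rose and 2 fell, where 7.79% of all tested genes were higher and 9.04% lower, and 3 of these calls (Hk2, Pfkl and Me1) were lost under some alternatives. The median log2 fold change was 0.12. Slc2a2, the glucose transporter gene of rodent beta cells, and Pklr, a pyruvate kinase gene, were at 0. The ubiquitous transporter gene Slc2a1 had 133 ± 11 CPM in control and 128 ± 1 in TLX and did not pass (edgeR adjusted p = 0.725). Txnip, a thioredoxin inhibitor gene induced by ChREBP and its paralog, fell, with 140 ± 7 CPM in control and 76.5 ± 5.9 in TLX (log2 fold change -0.88, SE 0.08, edgeR adjusted p = 1.17e-07). Hk1 rose from 147 ± 17 to 196 ± 5 CPM (edgeR adjusted p = 0.00102). Hexokinase 1 is a low-Km enzyme that mature beta cells hold low. Hk2 fell by 0.29 on the log2 scale (edgeR adjusted p = 0.00834), but with TLX replicate 1 or 2 left out it did not pass (0.119 and 0.178). Pfkl, the liver-type phosphofructokinase gene, and Me1, the cytosolic malic enzyme gene, rose by 0.28 and 0.31 (edgeR adjusted p = 0.0248 and 0.014). Both calls were lost in DESeq2 (0.113 and 0.0965), without TLX replicate 1 (0.32 and 0.191) and without TLX replicate 2 (0.071 and 0.0687), and that of Pfkl also without control replicate 2 (0.13).

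Of 27 granule, prohormone and exocytosis genes 8 were at 0, including Pcsk1, Pcsk2, Chga and Snap25. Another 7 had too few counts to test, among them Chgb and Cadps with 4 counts each in all, and 12 were tested. Cpe, the carboxypeptidase that trims prohormones, had 80.5 ± 3.6 CPM in control and 70.2 ± 3.6 in TLX, and Ptprn, the granule membrane protein IA-2, had 90.7 ± 1.8 and 92.0 ± 5.3. Neither passed (edgeR adjusted p = 0.119 and 0.905). Of the 12, 0 rose and 3 fell (9.04% of all tested genes were lower), Vgf (a granin-like precursor), Syt7 (a calcium sensor of exocytosis) and Stx1a (a fusion protein of the plasma membrane), by 0.40, 0.46 and 0.37 on the log2 scale (edgeR adjusted p = 0.0249, 0.024 and 0.0413), and the median log2 fold change was 0.00. These calls did not hold in DESeq2 (0.208, 0.242 and 0.297). Vgf also did not pass without control replicate 1 (0.0766) or TLX replicate 2 (0.244), nor Syt7 without control replicate 2 (0.072) or TLX replicate 1 (0.19). Stx1a did not pass without control replicate 1 (0.0897), TLX replicate 1 (0.0971) or TLX replicate 2 (0.234), nor with all feature rows (0.0518).

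Genes that mature beta cells normally keep low were present in both groups. Of 17 such genes 1, Cxcl12, was at 0. Ldha, lactate dehydrogenase A, was the most abundant, at 2912 ± 358 CPM in control and 3063 ± 169 in TLX, followed per kilobase by Arhgdib, at 336 ± 31 and 367 ± 7 CPM. The lactate transporter gene Slc16a1 had 216 ± 14 and 192 ± 9 CPM. None of these 3 passed (edgeR adjusted p of 0.673, 0.292 and 0.14). Of 15 tested, 2 rose (Oat and Cat) and 4 fell (Cd44, Mgst1, Lmo4 and Zfp36l1), with a median log2 fold change of -0.01, against 7.79% higher and 9.04% lower of all tested genes. Cd44, a hyaluronan receptor gene, fell from 342 ± 10 to 250.4 ± 7.3 CPM (edgeR adjusted p = 0.000173), and Mgst1 from 19.7 ± 0.4 to 13.3 ± 0.3 CPM (edgeR adjusted p = 0.00401, and 0.0792 in DESeq2). Oat, Cat and Zfp36l1 also did not pass in DESeq2 (adjusted p of 0.0515, 0.139 and 0.14). With TLX replicate 1 left out, Oat, Cat, Lmo4 and Zfp36l1 did not pass (edgeR adjusted p of 0.0701, 0.158, 0.118 and 0.106). Without TLX replicate 2 Oat, Cat and Lmo4 did not (0.152, 0.0604 and 0.122), nor Cat without control replicate 1 (0.0634) or Zfp36l1 without control replicate 2 (0.21).

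**Figure D4:**
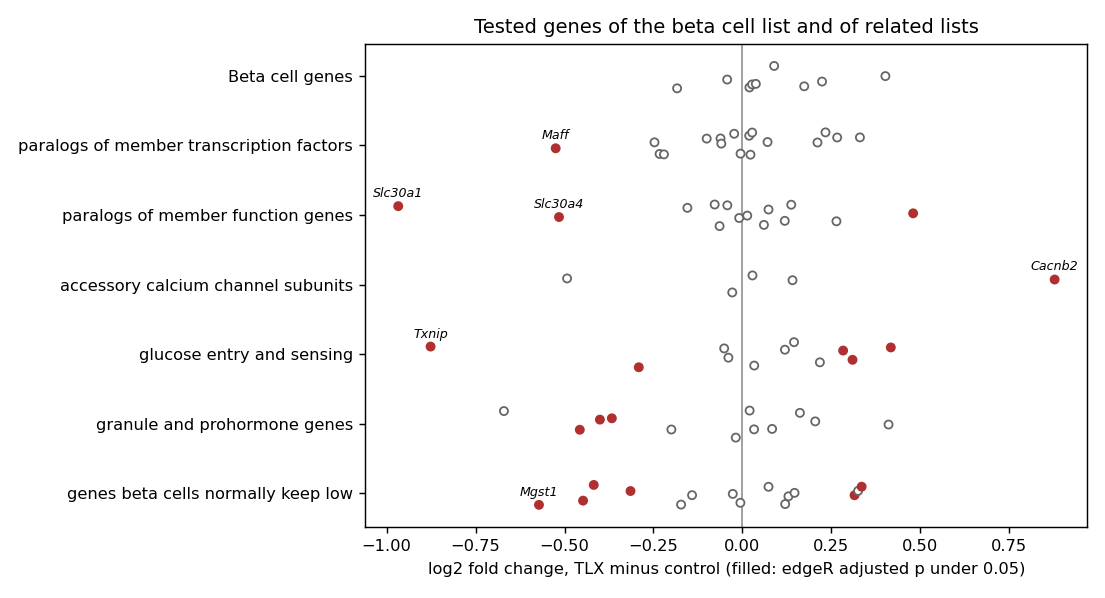
Log2 fold change of TLX minus control for each tested gene of the 35 and of 6 related lists; filled points passed edgeR's adjusted p threshold of 0.05, and called genes changed by over 0.5 are named. All 9 points of the beta cell genes are open. Slc30a1 and Cacnb2 lie farthest from 0 at -0.97 and 0.88, with Txnip at -0.88. Of these, Cacnb2 did not pass in DESeq2 (adjusted p = 0.0672).

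TLX is known to bind the hexamer AAGTCA. RefSeq promoter windows of 300 bases (250 before to 50 after a start, GRCm38.p6) were at hand for 26 of the 35 genes. The hexamer, on either strand, occurred in 9 of their 38 windows (23.7%), against 15.1% of 32851 windows of all genes. Some genes had several windows, which are counted separately here. No share per gene was computed for all genes, so the window shares do not show an excess among the listed genes. The 7 genes with a match were Cacna1c, Cacna1d, Foxa2, G6pc2, Myt1, Prlr and Rfx6, which had 0 or few counts in both groups, and 0 of the 7 tested genes with a window had one. A match describes the letters of the window and not a bound site.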

How the data were processed

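The submitters' processing notes name TopHat2 2.0.13 and build mm9. Counter, annotation, strand and the handling of multi-mapped reads are unstated. The authors deposited raw counts per feature, with a feature length, per the file headers. Rows named for cDNA clones (33353 of 56826) took 23.3% to 25.1% of counts and stayed out of library sizes and tests. Libraries were matched to groups by their labels. Pairs of libraries, replicates included, differed beyond sampling noise. The median chi-square per gene was 1.13 between the control libraries and 0.923 between the TLX libraries. Between a control and a TLX library it was 2.11 to 2.30.

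After filterByExpr (minimum count 10) and TMM scaling, gene rows went into edgeR 4.0.16's quasi-likelihood F-test (R 4.3.3; 2 residual degrees of freedom), Benjamini-Hochberg adjusted over 11024 genes at 0.05. SE is the log2 fold change divided by the root of F, and intervals use the test's total degrees of freedom. Ratios of low counts have exact binomial intervals. The test was also run on counts simulated from the dispersion fitted to these libraries. Such counts cannot show how the test behaves if the replicates are technical, and no result here rests on them. Levels are CPM, per kilobase of deposited length where genes are compared.

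The members and lists were chosen with earlier results of these data known. Named were all 35 members, and of each other list the called genes and the 6 highest per kilobase, not all of which are printed. Alternatives were DESeq2 1.42.0 (size factors; Wald test), total counts, no filter, a mean of 1 CPM, limma-voom (limma 3.58.1), a replicate block, all feature rows, no Rn45s (ribosomal RNA, 12.2% to 16.7% of gene counts) and leaving out each library. Some genes of the lists are counted in list totals but not reported here by name.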

Additional observations from a re-analysis of the deposited data

How the results depend on the processing

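Under all 13 alternatives 0 of the 35 genes were called in either direction. Of the 9 tested, Foxa1, Glis3 and Mafa kept their sign in every alternative, and adjusted p ranged from 0.235 to 0.706, 0.426 to 0.932 and 0.463 to 0.831. The others changed sign only when a library was left out. Without control replicate 1 Rfx3 was at -0.063; without control replicate 2 Foxo1, Ins2 and Pax6 were at -0.17, -0.12 and -0.01; without TLX replicate 1 Ins1, Pax6 and Pdx1 were at -0.025, -0.11 and 0.020; and without TLX replicate 2 Foxo1, Ins2 and Rfx3 were at -0.12, -0.33 and -0.023. Over single libraries left out, these log2 fold changes ranged to 0.16 for Rfx3, 0.22 for Foxo1, 0.44 for Ins2, 0.13 for Pax6, 0.34 for Ins1 and -0.10 for Pdx1.

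Over all genes, DESeq2's Wald test called 345 higher and 480 lower, against 859 and 997; the cause was not tested. With single libraries left out, 388 to 993 were higher and 585 to 1060 lower; the lone library of a group is then assumed to vary like the others. The replicate block gave 1495 higher and 1487 lower and changed no call among the 35 genes. The numbers are not shown to pair libraries: control and TLX replicate 1 deviated from their group means with a correlation of 0.108 over genes, from 2 pairs. The median control level of the 9 genes was 6.94 CPM, and 5.25 on totals of all feature rows, which are larger by construction. For the 20 genes at 0, depth limits the statement to a level of at most 0.302 to 0.378 CPM per library. This limit leaves out any reads placed in clone rows. Such rows were tied to the listed genes only through RefSeq synonyms, for 3 genes, and other clone rows were not checked.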
